A study of Mus musculus with 12 samples.

Results

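The comparison is between hippocampi of mice lacking CREB and CREM and hippocampi of control mice, both taken 1 hour after an intraperitoneal injection of kainate at 20 mg/kg. It rests on 6 of the 12 arrays of the series, chosen by their titles: 3 labelled as kainate-treated mutant and 3 labelled as kainate-treated control. The other 6 arrays hold the same genotypes, 3 each, and are labelled as saline-treated. All animals were littermates of both sexes, aged 5 to 6 weeks, caged singly and handled for 5 days, and each array holds labelled RNA pooled from 3 animals. The alleles behind the labels "mutant" and "control", the promoter of any Cre driver and the cells that lost the factors are not stated in the labels used here. An error between arrays is therefore one between pools, not between single animals.

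CREB and CREM are related leucine-zipper transcription factors that bind the cAMP response element, a short palindrome found in many promoters. Calcium and cAMP signals lead to phosphorylation of CREB and of activating forms of CREM, after which these recruit co-activators and raise transcription of nearby genes. Kainate, an agonist of a class of glutamate receptors, causes seizures in rodents, and within an hour hippocampal neurons switch on immediate-early genes, several of which are classical CREB targets.

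All values are log2 GCRMA signals, and a difference is mutant minus control, so a difference of -1 means that the mutant signal is lower by a factor of 2. Tests cover the 3541 of 11868 probe sets above a limit on dim signal, from which 2387 genes can be named. As labelled, neither Creb1 nor Crem read lower in mutants. The brighter Creb1 probe set read 4.90, 4.81 and 4.84 in control kainate arrays 1 to 3 and 4.83, 4.85 and 5.01 in the mutant ones, and the brighter Crem probe set read 4.57, 4.41 and 4.42 against 4.51, 4.55 and 4.65. Both sets of values overlap between the genotypes, at 0.05 ± 0.08 (SE) for Creb1 and 0.10 ± 0.08 for Crem. After saline Crem read 4.51, 4.37 and 4.50 in controls and 4.63, 4.83 and 4.65 in mutants, higher in mutants with no overlap (0.24 ± 0.08). The same lack of overlap in this direction was found for 1027 of the 3541 probe sets after saline. The median saline difference of probe sets below a mean log2 of 5, where Crem lies, was 0.08. The labels do not say whether these probes lie in a deleted part, so the values check nothing about the labels.

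Of the 6 kainate arrays, 2 stand apart. Mutant kainate replicate 3 has a narrow range of signal, with an SD over probe sets of 1.52 against 1.71 to 1.78 on the other 11 arrays, and correlates with the other kainate arrays at 0.82 to 0.90. It lies below the mean of mutant replicates 1 and 2 on 88.9% of probe sets at a mean log2 of 7 to 9 and on 28.8% of those under 5. Control kainate replicate 3 reads like a mutant array on part of the probe sets. A score was set to 0 at the control saline mean and 1 at the mutant saline mean, over the 50 probe sets that best part the saline arrays. On it control kainate replicate 3 stands at 0.79 and replicates 1 and 2 of that group at 0.08 and 0.27. The mutant kainate arrays stand at 0.54, 1.15 and 1.33. The control saline arrays, at -0.06 to 0.05, lie near 0 because they set it. With the 50 probe sets ranked on the spread of all 12 arrays, which picks mostly dim ones, control kainate replicate 3 stands at 0.12. The other control arrays then lie at -0.26 to 0.39 and the mutant kainate arrays at 0.37, 0.50 and 0.61. Mutant kainate replicate 1 thus lies within the control range, and this second score parts the genotypes less clearly after kainate. The placement of control kainate replicate 3 depends on how the score is built. Replicate 1 against replicates 2 and 3 is treated as a batch seen in the data: control and mutant kainate replicate 1 correlate at 0.992, and with replicate 2 of their own genotype at 0.967 and 0.956. Results are given first as labelled and then without these 2 arrays.

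As labelled, no probe set passed an adjusted p of 0.05 for mutant against control after kainate (limma, 0 of 3541, which is 0%, with a smallest adjusted p of 0.55). At an unadjusted p under 0.05 there were 167 (4.72%), 32 higher (0.904%) and 135 lower (3.81%). Chance gives 177, and the same arrays gave 280 with the replicate number as a block and 295 with the batch as a block, again with none past an adjusted p of 0.05. The 3 mutant arrays lay above all 3 control arrays on 86 probe sets (2.43%) and below them on 134 (3.78%). Without the 2 arrays that stand apart, again none passed, with 102 (2.88%) at an unadjusted p under 0.05 and Fbll1 closest at an adjusted p of 0.0587. With the batch as a further term, 4 probe sets passed (0.113%), all lower in mutants: Gm2115, Slc25a16, Fbll1 and a probe set of Anks1b. These calls compare 2 arrays with 2 and rest on 5 residual degrees of freedom, and leaving out any one of control replicate 1, control replicate 2 or mutant replicate 2 as well leaves no call, while leaving out mutant replicate 1 gives 36. Each of those fits leaves 1 array in a kainate group, which is assumed to vary like the other groups. Of the 4 called, the probe sets of Gm2115, Fbll1 and Anks1b are among the 50 on which control kainate replicate 3 was found to read like a mutant array. So are those given below of Sstr4, Lefty1, Mogs, Gfap, Laptm5, Scn3b, Csgalnact1, Smim18 and B230217C12Rik, and another of Anks1b. Leaving that array out favours a larger difference on such probe sets, so these differences are not independent of the choice of arrays.

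Gm2115, a predicted gene listed among markers of CA1 pyramidal neurons, had the largest difference of the 4. It read 8.83, 8.29 and 6.91 in control kainate arrays 1 to 3 and 7.21, 6.93 and 6.77 in the mutant arrays. The first pair of control arrays lies above every mutant array, and control replicate 3 lies among them. The difference was -1.04 ± 0.40 as labelled (limma adjusted p = 0.55), and -1.49 ± 0.13 without the 2 arrays and with the batch term (adjusted p = 0.013), a 2.81-fold lower signal.

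Fbll1 encodes a paralogue of the nucleolar RNA methyltransferase fibrillarin. Its control arrays read 7.84, 7.78 and 6.51 and its mutant arrays 6.52, 6.49 and 7.46. Replicate 3 runs opposite to replicates 1 and 2 in both genotypes, so the groups overlap. The difference went from -0.56 ± 0.37 as labelled to -1.31 ± 0.14 without those arrays and with the batch term (limma adjusted p = 0.0249).

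Anks1b encodes AIDA-1, a scaffold protein of the postsynaptic density, and was read by 5 probe sets. The brightest gave 10.29, 10.75 and 9.73 in controls and 9.31, 9.49 and 9.96 in mutants. Both replicate 3 arrays lie between replicates 1 and 2 of the controls and those of the mutants, with the mutant one the higher. Its difference was -0.67 ± 0.27 as labelled and -1.12 ± 0.11 without the 2 arrays and with the batch term (limma adjusted p = 0.0207). The other 4 probe sets also gave negative values, -1.03, -0.30, -0.19 and -0.34 as labelled and -1.31, -0.74, -0.42 and -0.57 without the 2 arrays, and none of these passed in either fit.

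Slc25a16, which encodes a carrier of the inner mitochondrial membrane, read 6.93, 6.24 and 5.39 in controls and 6.15, 5.48 and 5.65 in mutants. Replicate 1 lies high in both genotypes, and the mutant array differed from the control by -0.78 in pair 1, -0.76 in pair 2 and 0.27 in pair 3, the last the other way. The difference as labelled was -0.42 ± 0.37. In the fit without the 2 arrays the SE went from 0.36 to 0.06 when the batch was added, and the difference of -0.77 then passed (limma adjusted p = 0.013).

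Sstr4, a somatostatin receptor, and Lefty1, a secreted antagonist of Nodal signalling on the list of CA1 markers, followed the same order of arrays without passing. Sstr4 read 8.66, 8.46 and 7.39 in controls and 7.58, 7.50 and 7.11 in mutants (-0.77 ± 0.29 as labelled, and -1.02 ± 0.12 without the 2 arrays and with the batch term, limma adjusted p = 0.0507). Lefty1 read 8.20, 7.76 and 6.48 against 6.54, 6.32 and 5.63 (-1.32 ± 0.42, and -1.55 ± 0.25 at an adjusted p of 0.129 in the limma fit with the batch term). In both genes control replicate 3 lies below mutant replicate 1, and the other control arrays lie above every mutant array. Mogs, the glucosidase that begins the trimming of N-linked glycans, gave 8.08, 7.50 and 6.33 against 6.73, 5.69 and 6.07, again with control replicate 3 inside the mutant range (-1.14 ± 0.43 as labelled, -1.58 ± 0.38 without the 2 arrays).

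**Figure D1:**
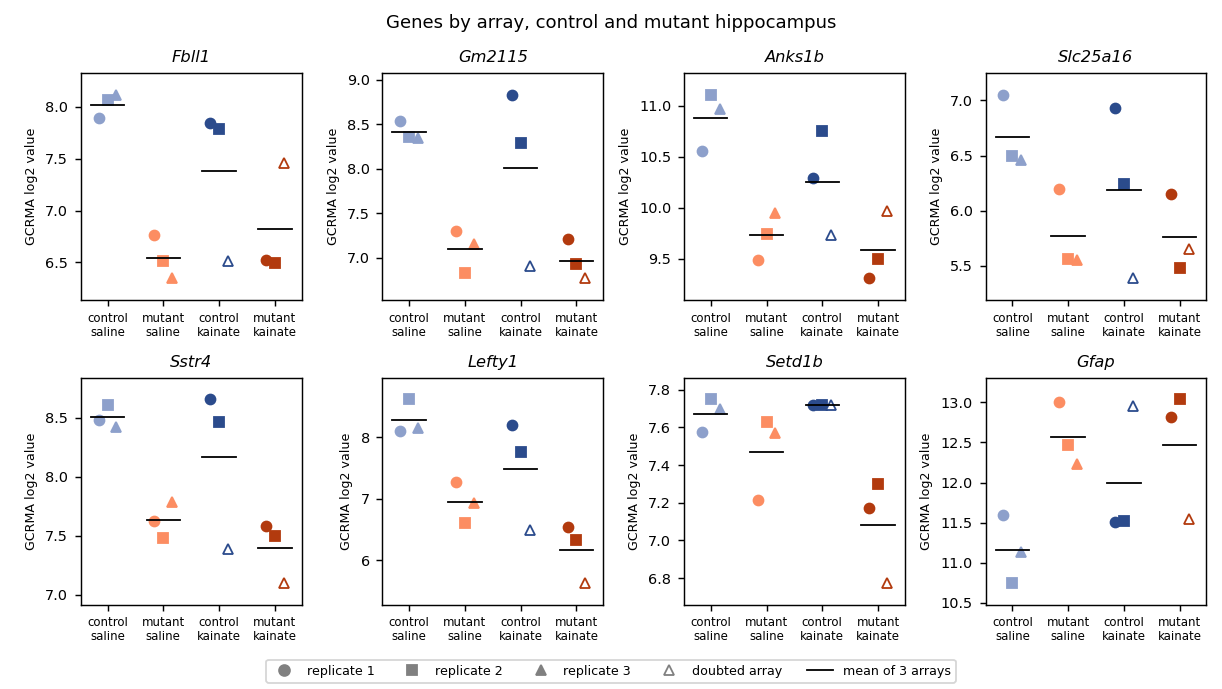
GCRMA log2 value of 8 genes on each of the 12 arrays, by genotype and treatment; symbols mark the replicate number, open triangles the 2 arrays that stand apart, and black bars the mean of 3 arrays. For Gm2115, Sstr4 and Lefty1 the open control triangle lies with the mutants (6.91, 7.39 and 6.48), and for Fbll1 and Gfap both open triangles lie with the other genotype.

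After saline, in arrays that share no sample with the kainate arrays, no probe set passed with all 12 arrays fitted (limma, 0 of 3541, 0%, with a smallest adjusted p of 0.0747), and none with the batch or replicate block added. Without the 2 kainate arrays and with the batch term, a fit in which both comparisons share one estimate of spread and batch, 6 probe sets passed for mutant against control after saline (0.169%), and the 4 called after kainate were all among them. The saline differences were -1.32 for Gm2115, -1.48 for Fbll1, -1.15 for the brightest Anks1b probe set and -0.90 for Slc25a16, against -1.49, -1.31, -1.12 and -0.77 after kainate. Over all 3541 probe sets 73.0% had the same sign in both treatments, with a correlation across probe sets of 0.54 as labelled and 0.63 without the 2 arrays. Probe sets within an array are not independent, so these figures are descriptions.

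Among the 50 probe sets that best part the saline arrays, 34 of them lower in mutants, 43 kept their direction after kainate as labelled and 46 without the 2 arrays. Control kainate replicate 3 was found to stand apart on these same 50, so leaving it out favours the second count. The direction held in 36, 48 and 36 of the 50 for the replicate pairs 1, 2 and 3, which is to be read beside 44.2%, 75.8% and 70.9% of all probe sets in the same pairs. Of the 428 probe sets at an unadjusted p under 0.05 after saline (12.1% of those tested), 97.4% kept their sign after kainate as labelled, but only 14.5% did so within pair 1. The same shares of all probe sets were 73.0% and 44.2%. Of these 428, 378 were higher in mutants after saline (10.7% of those tested). Over all probe sets below a mean log2 of 5 the median difference was positive in both treatments, at 0.08 after saline and 0.06 after kainate as labelled. Its part in the kept signs was not tested.

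**Figure D2:**
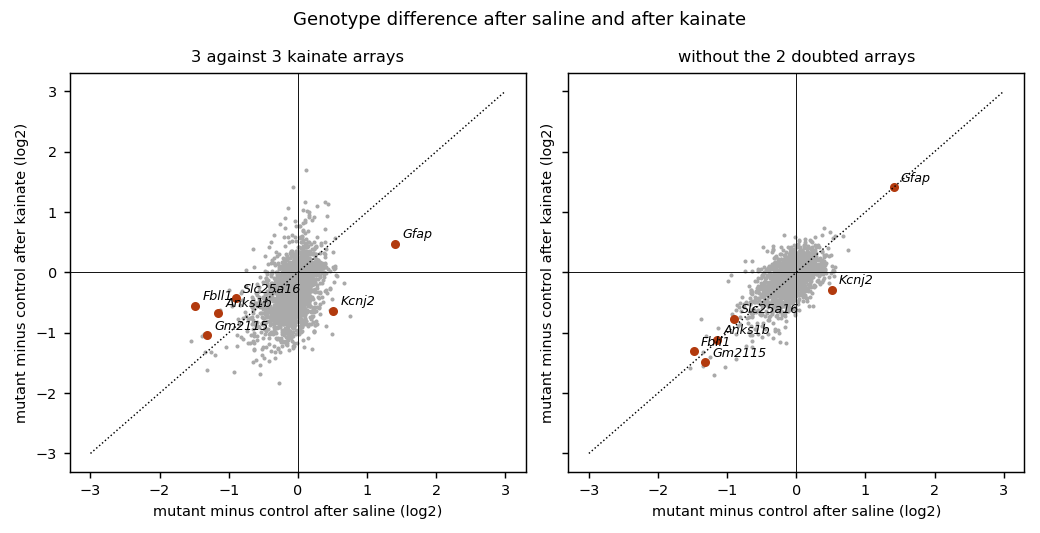
Difference between mutant and control after kainate (vertical axis, log2) against the same difference after saline (horizontal axis, log2), 1 point for each of 3541 probe sets, with all 3 arrays a group (left) and without the 2 arrays that stand apart (right); the dotted line marks equal differences. Without them Fbll1 and Gfap move onto the line (-1.31 and 1.41 after kainate, -1.48 and 1.41 after saline), while Kcnj2 stays below it. Fbll1 and Gfap are among the 50 probe sets on which control kainate replicate 3 was found to read like a mutant array.

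No probe set passed for the interaction, the test of whether the genotype difference after kainate differs from that after saline (limma, 0 of 3541, 0%, with 31 at an unadjusted p under 0.05, 0.875%). Kcnj2 and Csgalnact1 had small unadjusted values. Kcnj2, an inward-rectifier potassium channel gene induced by kainate, had an interaction of -1.14 ± 0.34 (limma unadjusted p = 0.00797, adjusted p = 0.973), and of -0.80 ± 0.24 without the 2 arrays. Csgalnact1, which encodes an enzyme of chondroitin sulphate synthesis, was 0.54 ± 0.07 higher in mutants after saline and 0.07 ± 0.07 after kainate. Its interaction of -0.47 ± 0.10 was -0.51 ± 0.11 without the 2 arrays (limma adjusted p = 0.973 as labelled). Its 3 mutant saline arrays, at 6.39 to 6.57, lie above the 9 others, which run from 5.88 to 6.11. The Csgalnact1 probe set is among the 50 that best part the saline arrays, so its interaction is not independent of that ranking.

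The series asks how the response to kainate depends on CREB and CREM. Genes listed as induced by neuronal activity differed among themselves in direction. The lists were written from general knowledge, so a member need not be induced on these arrays. Of 7 measured activity-induced transcription factor genes none passed, 4 were positive and 3 negative, and the median difference was 0.02 as labelled and 0.03 without the 2 arrays. Of the positive ones as labelled, Tsc22d1, Jun and Crem had group means of 3.95 to 4.57, near the dim limit of 4, and the other was Egr4. The median as labelled is the value of Tsc22d1. The negative ones, Ier5l, Egr3 and Nfkbia, were brighter and gave -0.76, -0.43 and -0.08. Over all genes the median was -0.11 as labelled and 0.01 without the 2 arrays, and 60.2% and 46.3% of genes were negative. Of 12 measured effector genes none passed. As labelled 9 were negative, with a median of -0.49, and without the 2 arrays 8 were, with a median of -0.28. Of the 12, 3 lay lower in mutants with no overlap between the groups, namely Sik1, Kcnj2 and Gpr22, beside 4.65% of all genes.

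Sik1 encodes a salt-inducible kinase that restrains the CREB co-activators, and its own gene is a classical CREB target. It read 6.91, 7.49 and 6.44 in control kainate arrays and 5.83, 6.28 and 5.92 in mutant ones. Every mutant array lies below every control array, and the difference was -0.93 ± 0.27 (limma unadjusted p = 0.0069, adjusted p = 0.55). It was -1.14 ± 0.29 without the 2 arrays and -0.64 ± 0.27 after saline, where the means were 5.05 and 4.41, so Sik1 was above its saline level after kainate in both genotypes.

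Kcnj2 read 9.37, 9.52 and 9.60 in controls and 9.09, 9.23 and 8.27 in mutants, against saline means of 6.22 and 6.73. The mutant arrays all lie below the controls, most of all replicate 3, and the difference of -0.63 ± 0.24 as labelled was -0.29 ± 0.19 without the 2 arrays (limma adjusted p = 0.55 as labelled). Gpr22, an orphan receptor gene, read 9.10, 9.18 and 9.02 against 8.95, 8.55 and 7.05. Here too replicate 3 holds most of the difference, which went from -0.92 ± 0.39 to -0.39 ± 0.14.

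Egr3, a zinc-finger immediate-early factor, read 10.94, 10.76 and 10.68 in controls and 10.82, 10.20 and 10.05 in mutants on its brighter probe set. Replicate 1 of the mutants lies among the controls (-0.43 ± 0.26, and -0.33 ± 0.33 without the 2 arrays). Egr4, of the same family, read 6.16, 6.58 and 6.02 against 5.25, 7.55 and 6.94, with mutant arrays on both sides of the controls (0.33 ± 0.48, with a 95% interval of -0.75 to 1.41). The interval covers a difference of 1 upwards, so similar levels of Egr4 in both genotypes were not shown.

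Apold1, an early-response gene of endothelium, read 6.83, 7.17 and 7.65 in controls and 7.03, 6.28 and 5.38 in mutants. The difference was 0.20 in pair 1, -0.89 in pair 2 and -2.26 in pair 3, so -0.98 ± 0.37 as labelled became -0.35 ± 0.27 without the 2 arrays. Rgs4, a GTPase activator for G proteins, went from -0.41 ± 0.21 to -0.14 ± 0.21. The predicted gene Gm13889 went the other way on its brighter probe set, from 0.56 ± 0.33 to 0.01 ± 0.27. In each of these genes every kainate array of both genotypes lay above the mean of its saline group, and the genotypes overlapped.

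**Figure D3:**
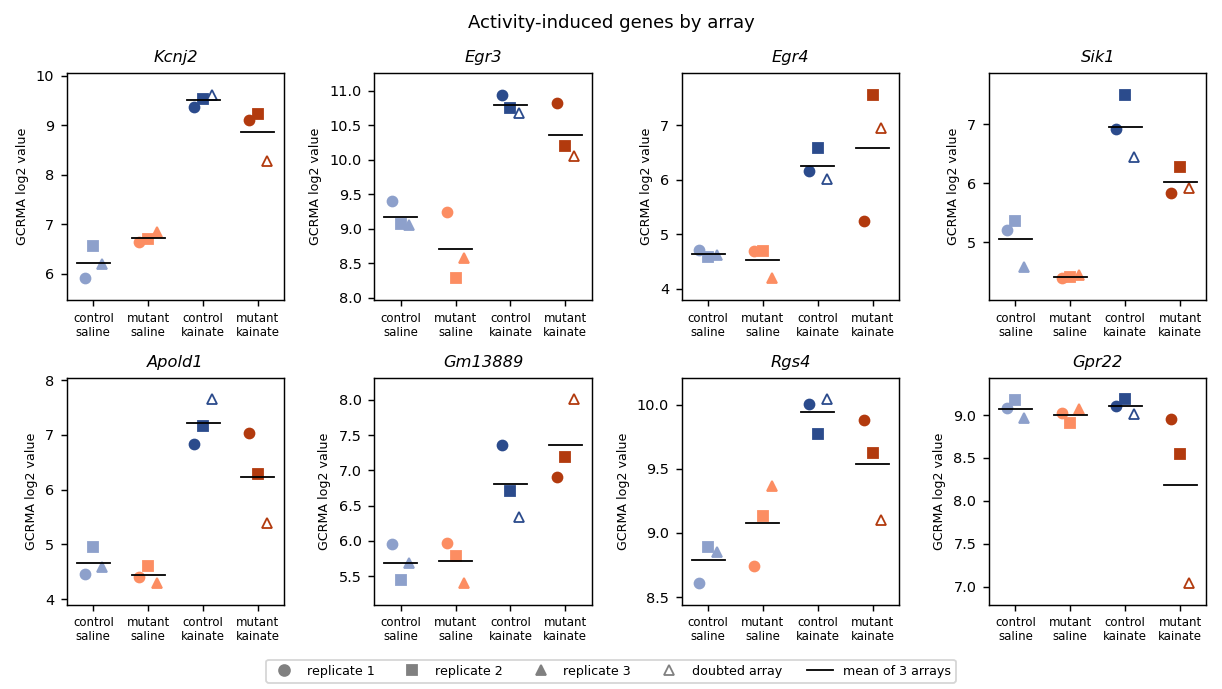
GCRMA log2 value of 8 genes of the activity-induced lists on each of the 12 arrays, drawn as in the plot of lower genes. Sik1 is the gene whose 3 mutant kainate arrays (5.83 to 6.28) stay clear of the controls (6.44 to 7.49) with mutant replicate 3 inside the range of the other mutants, whereas for Kcnj2, Apold1, Rgs4 and Gpr22 that array is the lowest of the 6.

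The CREB family and its co-activators, and genes known as CREB targets, gave no call either. Of 10 family genes 5 were positive and 5 negative (median -0.07 as labelled, 0.02 without the 2 arrays), and the co-activator genes Crtc1 and Crtc3 differed by 0.24 ± 0.22 and -0.17 ± 0.15 as labelled and by 0.01 ± 0.23 and 0.04 ± 0.12 without the 2 arrays. Of 7 known targets 5 were negative as labelled (median -0.41) and 4 without the 2 arrays (median -0.0028). The median without the 2 arrays is the value of Bcl2, whose kainate group means of 4.02 and 4.01 lie at the dim limit. Penk, the enkephalin precursor gene, gave -0.50 ± 0.31 as labelled and -0.67 ± 0.40 without the 2 arrays. Mcl1, a survival gene of the Bcl2 family, gave -0.65 ± 0.33 and -0.26 ± 0.23. In Mcl1 mutant replicate 3 read 8.29 and the other 5 arrays 9.56 to 9.87.

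The genes of known function with the smallest p among those lower in mutants as labelled, with no overlap between 3 and 3 arrays, did not pass and are given as values. Setd1b, a histone methyltransferase gene, read 7.72 on all 3 control arrays and 7.17, 7.30 and 6.78 in mutants (-0.64 ± 0.14). Baiap2, whose product links small GTPases to actin at the synapse, read 9.01, 9.32 and 9.12 in controls and 8.49, 8.79 and 8.58 in mutants. Its replicate pairs all differed by -0.52 to -0.53, and the SE of its difference (-0.53 ± 0.14 as labelled) was 0.09 without the 2 arrays and with the batch term (limma adjusted p = 0.148).

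Nus1, a subunit of the enzyme that makes dolichol, read 6.72, 7.32 and 6.64 in controls and 6.43, 5.62 and 5.52 in mutants (-1.04 ± 0.27). Kcnq3, a potassium channel subunit of the M-current, gave -1.12 ± 0.31 on the dimmer of its probe sets and -0.42 ± 0.23 on the brighter, where the groups overlapped. Rnf214, a RING finger gene, had the smallest p of these (-0.40 ± 0.08, limma unadjusted p = 0.000791, adjusted p = 0.55), and its brighter probe set gave -0.82 ± 0.39, with mutant replicate 3 at 5.04 and the other mutant arrays at 6.78 and 6.68. The remaining members of these 10 besides Sik1 were BC064078, B230217C12Rik, Fn3k and Smim18, with differences of -0.84, -0.98, -0.44 and -0.76. After saline Setd1b, Baiap2 and Rnf214 gave -0.20, -0.13 and 0.08, and Nus1, B230217C12Rik and Smim18 gave -0.68, -0.73 and -0.80.

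The 10 genes with the smallest p in the higher direction did not pass either. They were Gm11419, 1810007D17Rik, Fam71a, Usp35, Sfxn2, 1700018L02Rik, Ppp1r27, Jun, Hip1 and Acoxl. Fam71a had the largest difference, 1.02 ± 0.32, from 4.85, 4.64 and 4.60 in controls and 4.95, 5.65 and 6.56 in mutants, of which replicate 3 is the highest, and its difference was 0.55 ± 0.21 without the 2 arrays. Gm11419 read 6.29, 6.33 and 6.37 against 6.60, 6.60 and 6.99 (0.40 ± 0.10). Jun, the AP-1 factor gene, read 4.17, 4.06 and 4.03 against 4.22, 4.25 and 4.27, near the dim limit of 4, so its 0.16 ± 0.06 says little about its level.

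Ion channel, synaptic and receptor genes read lower in mutants as labelled, and much of this size is found over all probe sets of like brightness. Of 28 measured genes of voltage-gated and rectifier channels 25 were negative as labelled (median -0.42) and 20 without the 2 arrays (median -0.18), and none passed. For 18 genes of glutamate receptors and the postsynaptic density the medians were -0.37 and -0.09, and for 27 presynaptic genes -0.37 and -0.04. Anks1b alone of these passed, in the fit without the 2 arrays and with the batch term. Over all probe sets the median difference was 0.06 below a mean log2 of 5, -0.22 from 5 to 7, -0.48 from 7 to 9 and -0.30 above 9. Without the 2 arrays the same medians were 0.02, -0.01, -0.09 and -0.07.

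**Figure D4:**
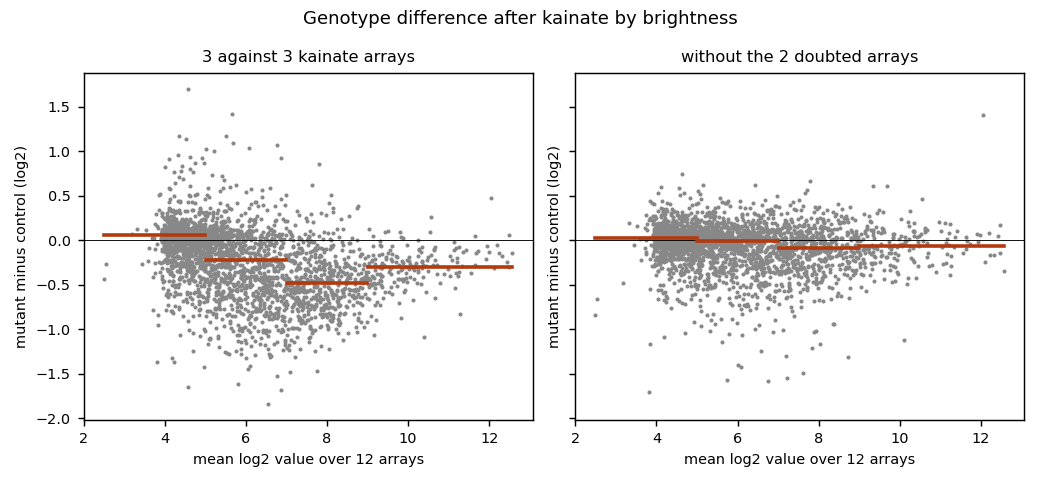
Difference between mutant and control after kainate (log2) against the mean log2 value over 12 arrays, 1 point for each probe set, with the median of 4 brightness steps as red bars. The bars fall to -0.48 at a log2 of 7 to 9 with all arrays (left) and stay between -0.09 and 0.02 without the 2 arrays that stand apart (right).

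Kcnq5, another M-current subunit, shows this for a single gene. It read 8.27, 7.54 and 7.78 in controls and 8.32, 7.01 and 4.99 in mutants, and its difference of -1.09 ± 0.67 as labelled was -0.24 ± 0.44 without the 2 arrays. Scn3b, a sodium channel beta subunit, kept its size, with 10.63, 10.25 and 10.21 against 10.28, 9.76 and 9.61 (-0.48 ± 0.18, and -0.42 ± 0.20 without the 2 arrays). In each replicate pair of Scn3b the mutant array is the lower, though replicate 1 of the mutants lies above the other control arrays. Scn3b is also among the 50 probe sets on which control kainate replicate 3 was found to read like a mutant array.

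Markers of CA1 pyramidal neurons stood lowest among the lists with at least 4 measured genes without the 2 arrays. Of 4 measured none passed as labelled and Gm2115 passed without the 2 arrays and with the batch term. The median of the 4 was -0.65 as labelled, -0.78 without the 2 arrays and -0.65 after saline. As labelled the median of the interneuron list was nearly the same, at -0.64. The CA1 median averages unlike genes: Lefty1 and Gm2115 are named above, whereas Arl15 gave -0.07 and Cpne6 0.14 without the 2 arrays. Lefty1 and Gm2115 are also among the 50 probe sets on which control kainate replicate 3 was found to read like a mutant array. For 10 markers of CA3 and CA2 the medians were -0.34 and -0.18, led by Grp, which encodes gastrin-releasing peptide (-0.94 as labelled and -0.52 without the 2 arrays). For 10 markers of the dentate gyrus they were -0.18 and 0.02. In whole hippocampus fewer cells of a type and less RNA per cell cannot be told apart.

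Gfap, the intermediate filament gene of astrocytes, had a large positive difference on part of the arrays. It read 11.51, 11.53 and 12.95 in controls and 12.82, 13.03 and 11.55 in mutants. The replicate 3 arrays stand in the opposite order to the other pairs, so the difference of 0.47 ± 0.49 as labelled was 1.41 ± 0.26 without them and with the batch term (limma adjusted p = 0.186), and 1.41 ± 0.49 after saline. Of 6 measured astrocyte markers, Gfap included, 3 were positive without the 2 arrays, with a median of 0.01. The summed signal of the list is carried by Gfap, the brightest, and ran from 11.62 to 13.04 in control and from 11.69 to 13.09 in mutant arrays.

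Of 6 microglial markers, 5 were negative as labelled (median -0.15) and 5 positive without the 2 arrays (median 0.05), none of them past the threshold. Laptm5, a lysosomal membrane protein gene of immune cells, read 9.64, 9.57 and 10.44 in controls and 10.12, 10.31 and 8.67 in mutants, and its difference went from -0.18 ± 0.40 to 0.61 ± 0.17. Laptm5 is also among the 50 probe sets on which control kainate replicate 3 was found to read like a mutant array, so this change is not independent of the choice of arrays. P2ry6, a nucleotide receptor of microglia, went likewise from -0.11 ± 0.33 to 0.52 ± 0.20. P2ry12, another microglial nucleotide receptor, gave -0.07 and 0.06. The summed microglial signal ran from 10.05 to 10.81 in control arrays and from 9.34 to 10.69 in mutant arrays, and its part in the differences of other genes was not tested.

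**Figure D5:**
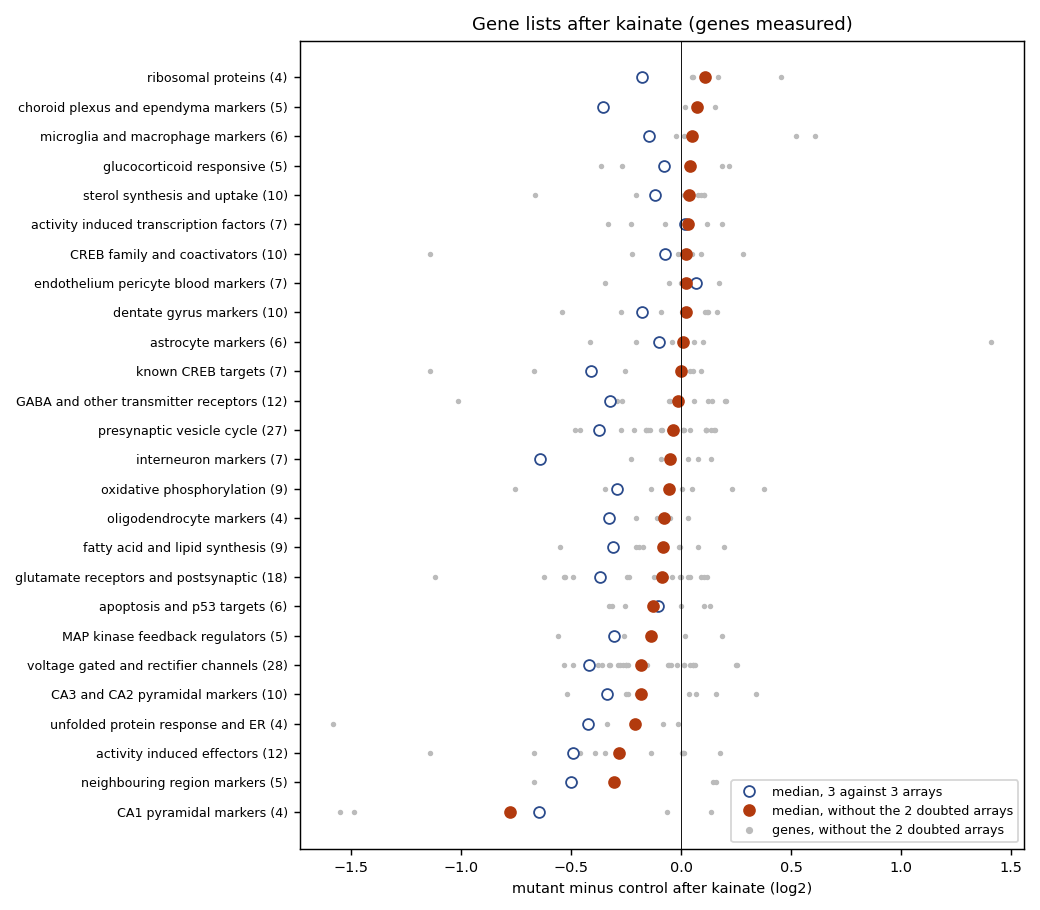
Median log2 difference between mutant and control after kainate of the 26 lists with at least 4 measured genes, with all arrays (open circles) and without the 2 arrays that stand apart (filled), and the single genes without them (grey). With all arrays 24 of the 26 medians are negative and without the 2 arrays 16 are, the lowest being the CA1 markers at -0.78.

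Promoters were read for the motif that both factors bind. The full palindrome TGACGTCA was searched for in RefSeq promoters of 250 bases before to 50 after each start (assembly GRCm38.p6), as were its parts TGACG and CGTCA, which overlap the full motif and cover both strands. Of the 14 genes named above as called or with the smallest p lower in mutants, 7 had a promoter in the table, and 0 held the full motif and 2 held a part. Sik1 had no promoter there and was not searched. Of the 9 matched genes named as higher, 0 held the full motif and 2 a part. Among all 1926 measured genes with a promoter, 3.37% held the full motif and 34.6% a part. No match says only that these letters are absent from these windows. The promoter of Slc25a16, a called gene with such parts, is at chr10:62920383-62920682 on the plus strand, with parts starting 83 and 30 bases before the start. The promoter of Fbll1, called and without either motif, is at chr11:35798835-35799134 on the minus strand. The full motif was found for 3 of the other named genes, which are printed for comparison. That of Flt1, a VEGF receptor gene (-0.41 ± 0.38 as labelled, 0.07 ± 0.30 without the 2 arrays), is at chr5:147725962-147726261 on the minus strand, with the motif 81 bases before the start. The Abcg2 promoter with the motif, of an efflux transporter gene (0.22 ± 0.12 and 0.17 ± 0.15), is at chr6:58640296-58640595 on the plus strand. There the motif lies 37 bases before the start. Other Abcg2 promoters, at chr6:58584283-58584582 and chr6:58596422-58596721, held no full motif. The Syn1 promoter, of a synaptic vesicle gene (0.05 ± 0.20 and 0.15 ± 0.26), is at chrX:20920869-20921168 on the minus strand, with the motif 159 bases before the start. Capitals mark the motifs.
Slc25a16: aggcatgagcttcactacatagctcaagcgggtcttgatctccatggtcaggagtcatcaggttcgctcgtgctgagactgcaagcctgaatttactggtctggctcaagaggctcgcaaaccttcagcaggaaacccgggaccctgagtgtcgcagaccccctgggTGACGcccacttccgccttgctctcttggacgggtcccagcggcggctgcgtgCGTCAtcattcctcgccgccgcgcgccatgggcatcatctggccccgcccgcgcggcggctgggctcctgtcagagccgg
Fbll1: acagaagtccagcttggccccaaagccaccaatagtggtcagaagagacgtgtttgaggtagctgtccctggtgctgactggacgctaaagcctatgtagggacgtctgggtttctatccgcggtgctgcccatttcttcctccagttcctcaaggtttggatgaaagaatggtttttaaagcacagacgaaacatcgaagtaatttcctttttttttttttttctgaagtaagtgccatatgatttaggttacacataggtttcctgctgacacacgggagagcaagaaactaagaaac
Flt1: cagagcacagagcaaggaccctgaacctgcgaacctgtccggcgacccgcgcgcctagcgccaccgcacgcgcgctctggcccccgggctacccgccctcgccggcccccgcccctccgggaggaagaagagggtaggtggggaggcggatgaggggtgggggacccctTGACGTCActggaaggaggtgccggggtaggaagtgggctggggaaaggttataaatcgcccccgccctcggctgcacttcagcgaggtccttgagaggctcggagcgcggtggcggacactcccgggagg
Abcg2: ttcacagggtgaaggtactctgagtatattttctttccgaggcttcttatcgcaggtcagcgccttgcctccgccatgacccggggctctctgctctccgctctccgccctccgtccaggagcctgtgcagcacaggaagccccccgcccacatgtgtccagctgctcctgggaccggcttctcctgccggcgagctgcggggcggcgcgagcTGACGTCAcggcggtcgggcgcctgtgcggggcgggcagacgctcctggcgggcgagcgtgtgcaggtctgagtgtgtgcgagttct
Syn1: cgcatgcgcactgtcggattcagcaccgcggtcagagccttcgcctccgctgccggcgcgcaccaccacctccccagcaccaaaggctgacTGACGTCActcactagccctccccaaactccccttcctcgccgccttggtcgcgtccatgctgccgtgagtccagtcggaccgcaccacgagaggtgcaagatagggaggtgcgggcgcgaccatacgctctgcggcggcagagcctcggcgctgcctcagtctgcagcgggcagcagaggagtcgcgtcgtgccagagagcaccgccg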

How the data were processed

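Hippocampal RNA was hybridised to 12 Affymetrix arrays, 3 per group. The deposited table holds log2 values that the authors made with GCRMA in R 2.4.1, per the submitters' processing notes; the GCRMA version is not given in the sources used here. GCRMA adjusts background by probe sequence and can compress differences of dim probe sets. The values were used as deposited.

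The 66 control probe sets were left out, and 3541 of 11868 probe sets reached log2 4 on at least 3 of 12 arrays. Symbols came from the platform annotation (2713 probe sets kept had 1, 39 several, 789 none). Comparisons were fitted with limma 3.58.1 under R 4.3.3 (lmFit, contrasts.fit, eBayes; 4 group means, 8 residual degrees of freedom), adjusted by Benjamini-Hochberg over 3541 probe sets, with a threshold of 0.05. The number of arrays limits the precision. Alternatives left out arrays, added the batch (replicate 1 against 2 and 3) or replicate number as a block, weighted arrays, and changed the filter, normalization and variance trend. The fits were tested on simulated data.

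The replicate numbers are shared between groups. Same-numbered kainate arrays deviated together from their group means (correlations 0.578, 0.333 and 0.190), which is taken from the data and not stated in the labels, and other-numbered ones correlated at -0.478 to 0.359. The arrays named as standing apart, the genes and the 31 gene lists (1560 entries, 221 genes measured) were chosen with earlier results of these data known. Named genes are Creb1 and Crem, genes past the threshold, the 10 with the smallest p in each direction with no overlap, up to 4 of each list with the largest difference, and genes of an earlier account. Each gene of a list was read by its brightest probe set.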

Additional observations from a re-analysis of the deposited data

How the results depend on the processing

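The count of 0 after kainate held for most alternatives, and changed to 4 without the 2 arrays that stand apart with the batch block added, and to 477 with array weights. The weighting stopped before it converged and gave mutant kainate replicate 2 a weight of 28.8 and replicate 3 of 0.0567, so it compares nearly 1 mutant array. Leaving out 1 array gave 0 to 15, the 15 without mutant kainate replicate 1 (5 higher, 10 lower). For the interaction array weights gave 2, and leaving out 1 array gave 0. After saline there was 1 call without the 2 arrays, 6 with the batch block as well and 2 with array weights, and leaving out 1 array gave 0.

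With the replicate number as a block, the pairing changed no call as labelled (0 after kainate, 280 at an unadjusted p under 0.05). Chosen after seeing the data, the replicate block without the 2 arrays gave 1 after kainate (Gm2115) and 4 after saline, and the batch block without control kainate replicate 3 alone gave 3 after kainate (Gm2115, Slc25a16 and the Anks1b probe set of -1.37) and 4 after saline. Without the 2 arrays, with the batch block and 1 more kainate array left out, also chosen later, the count ran from 0 to 36, the 36 without mutant replicate 1. Without the 2 arrays the sign turned for 8 of 69 named probe sets and 840 of all 3541. Of the 8, Laptm5 and P2ry6 turned at an unadjusted p under 0.05, to 0.61 and 0.52, and the others, with larger p, were those of Crtc3, Gm13889 (its dimmer probe set), P2ry12, Creb1, Flt1 and Cpne6. Signal near background limits the dim genes, and the small number of pools every difference.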
